A study of Mus musculus with 12 samples.

Results

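The 38 genes described here encode the machinery that stores neurotransmitter in synaptic vesicles and releases it at the presynaptic terminal. They were taken by symbol from the raw count table, in which each of the 38 had a row among 20347 gene rows, and all 38 passed the filter on low counts in every comparison. By role they comprise 9 synaptotagmin and Doc2 proteins, 4 SNARE proteins, 2 genes of SNARE disassembly, 3 complexins, 6 priming and active zone scaffold genes, 3 Rab3 GTPases, 7 vesicle membrane proteins, and 4 synapsin and synuclein genes. Their counts ran from 260 reads for Cplx3 in its lowest library to 85910 reads for Snap25 in its highest.

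Bulk RNA was sequenced from brain hemispheres of 12-week-old male mice, with the olfactory bulb and cerebellum removed. The left middle cerebral artery had been closed for 60 min by an intraluminal filament and reperfused for 24 h, so the ipsilateral hemisphere carried the stroke and the contralateral hemisphere served as the control. Mice without the operation were not analysed here. The mice were wild type (WT) or lacked Lama4 (Lama4-/-), which encodes a laminin chain found in the basement membrane of blood vessels. The 4 groups were WT contralateral, WT ipsilateral, Lama4-/- contralateral and Lama4-/- ipsilateral, with 3 libraries each. Every library was made from 2 pooled mice, so a value is the mean over a pool and over all cells of a hemisphere.

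At a presynaptic terminal, vesicles are filled with transmitter, held in a reserve pool by synapsins, carried to the active zone with Rab3 GTPases, and primed by Munc13 and RIM proteins. Assembly of syntaxin and SNAP-25 on the plasma membrane with synaptobrevin (VAMP) on the vesicle drives membrane fusion, which complexins clamp and promote and which the calcium sensor synaptotagmin triggers. NSF and its SNAP partners then take the SNARE complex apart for reuse. The mRNAs of these proteins lie mainly in neuronal cell bodies, while the proteins work in axon terminals that may be far away.

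Lama4 checked the genotype labels. It measured 10.5, 7.19 and 9.02 CPM in WT contralateral libraries 1 to 3, 15.1, 14.9 and 14.9 CPM in the WT ipsilateral libraries, and between 0.200 and 0.837 CPM in the 6 Lama4-/- libraries. The libraries held 27537167 to 44113824 counts, of which the 38 genes took 1.47% to 1.87%. CPM is a count scaled to the total of its library, while the fold changes use trimmed-mean (TMM) scaling, whose factors were 0.964 to 0.978 in contralateral and 1.01 to 1.05 in ipsilateral libraries. Scaling by total counts alone moved the median of all genes in the stroke comparisons from 0.01 to 0.08 in WT and from -0.01 to 0.08 in Lama4-/- on the log2 scale. For that reason a fitted fall is somewhat larger than the ratio of mean CPM. In bulk hemispheres, fewer neurons and less RNA per neuron cannot be told apart. Snap25, Syt1 and Syp, which mark neurons, each stood at 1092 CPM or more in all 12 libraries.

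RefSeq promoter windows (GRCm38.p6, 250 bases before to 50 bases after a start) were at hand for 27 of the 38 genes, in 35 windows. No window was listed for Snap25, Syngr3, Doc2b, Syt4, Doc2a, Rims2, Vamp2, Syt12, Syt7, Syn3 or Syt5. Since many of the genes moved together, the windows were searched on both strands for the cyclic AMP response element TGACGTCA, the EGR motif GCGTGGGCG, and both parts of the element bound by REST, a repressor of neuronal genes outside neurons, written TCAGCACC and GGACAGCG. None of these motifs overlapped another in the windows shown. Of the 27 genes, 2 held any of them. They are shown with Synpr, the gene with the largest fall in WT, and capitals mark the matches. The first window is that of Syn1 (chrX:20920869-20921168, minus strand), with the left REST part starting 231 bases and the cyclic AMP element starting 159 bases before the start site. The second is that of Unc13a (chr8:71671708-71672007, minus strand), with the EGR motif 25 bases before the start site and the right and left REST parts 6 and 22 bases after it, all on the opposite strand. The third is the upstream one of the windows listed for Synpr (chr14:13284530-13284829, plus strand), which held none of the 4.
Syn1: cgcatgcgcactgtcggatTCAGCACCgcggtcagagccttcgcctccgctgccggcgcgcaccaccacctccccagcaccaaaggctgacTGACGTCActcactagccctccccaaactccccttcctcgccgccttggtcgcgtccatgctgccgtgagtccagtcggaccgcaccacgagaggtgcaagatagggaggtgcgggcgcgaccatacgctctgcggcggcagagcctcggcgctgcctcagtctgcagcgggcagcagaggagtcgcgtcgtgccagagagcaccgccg
Unc13a: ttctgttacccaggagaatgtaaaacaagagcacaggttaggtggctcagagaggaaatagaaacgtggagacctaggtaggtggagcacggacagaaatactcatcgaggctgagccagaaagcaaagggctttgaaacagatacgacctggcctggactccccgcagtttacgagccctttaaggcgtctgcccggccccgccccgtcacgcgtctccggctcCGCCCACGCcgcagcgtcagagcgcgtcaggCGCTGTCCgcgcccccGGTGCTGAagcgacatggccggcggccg
Synpr: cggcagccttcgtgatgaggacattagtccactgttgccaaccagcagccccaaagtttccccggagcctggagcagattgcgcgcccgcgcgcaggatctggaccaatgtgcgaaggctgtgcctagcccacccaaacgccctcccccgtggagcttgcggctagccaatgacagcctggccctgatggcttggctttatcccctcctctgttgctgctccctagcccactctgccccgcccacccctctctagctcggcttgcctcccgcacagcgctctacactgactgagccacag
Among all 32851 windows of that length, 1.79% held the cyclic AMP element, 0.612% the EGR motif, 1.65% the left and 1.26% the right REST part. In the same order, these motifs were held by 1, 1, 2 and 1 of the 35 windows of the release genes. Whether these counts differ from all windows was not tested. The median GC content was 61.3% in the 35 windows of the release genes and 52.7% in all windows.

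The first question was what stroke did to the release genes in WT mice. The 38 were chosen with earlier results of these data known, so shares set beside those of all genes only describe them. In WT, 11 of the 38 genes fell in the stroke hemisphere (28.9%), against 5.47% of all 15351 genes tested, and 0 of the 38 rose, against 9.91% of all genes (edgeR, adjusted p under 0.05). The 11 were Doc2b, Nsf, Rab3a, Rab3b, Syn1, Syngr3, Synpr, Syp, Syt1, Unc13c and Vamp2. In Lama4-/- mice 17 of the 38 fell (44.7%), against 10.5% of all genes, and again 0 rose, against 12.8%. Of these, 10 were called in both genotypes, Unc13c in WT alone, and Cplx1, Doc2a, Sncb, Stx1a, Syn2, Syngr1 and Syt5 in Lama4-/- alone. The remaining 20 were called in neither, and no share of all genes called in both is given here. The falls were modest. The median log2 fold change over the 38 was -0.19 in WT, beside 0.01 for all genes, and -0.26 in Lama4-/-, beside -0.01. Values below 0 were found for 34 of 38 genes in WT and 33 of 38 in Lama4-/-, beside 48.8% and 51.2% of all genes. Scaling by total counts alone left 32 and 31 of the 38 below 0. The lowest counts under any alternative came without contralateral library 1 of the genotype, at 31 in WT and 28 in Lama4-/-.

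Counting libraries instead of fitted values, all 3 WT stroke libraries lay below all 3 WT contralateral libraries for 17 of the 38 genes, against 9.82% of all genes. The same held for 15 of the 38 in Lama4-/-, against 9.98% of all genes. All WT stroke libraries lay above the contralateral ones for 2 of the 38, Syt12 and Cplx3, against 29.9% of all genes, and in Lama4-/- for 0 of the 38, against 25.9%. Hemispheres of the same number varied together and were taken as a pair from 1 pool of mice, which the labels do not state. Same-numbered libraries of different genotypes, which share no mice, correlated at r = -0.097 to 0.349, so the pairing is an assumption. Of the 38 genes, 18 were lower on the stroke side in 6 of 6 pools, against 11.5% of all genes. A fit that took the pool as a block called 17 of the 38 lower in WT (edgeR), all 11 of the above among them, against 10.3% of all genes, and 1 higher, Cplx3, against 13.2%. In Lama4-/- the block called 19 of the 38 lower, against 15.7%. DESeq2 called 15 and 21 of the 38 lower in WT and Lama4-/-, against 8.4% and 12% of all genes. It added Doc2a, Stx1a, Syn2 and Syngr1 in WT (DESeq2 adjusted p = 0.0149 to 0.0470) and Cplx2, Sv2a, Syt11 and Unc13a in Lama4-/- (DESeq2 adjusted p = 0.0275 to 0.0493). The 6 WT libraries alone called 15 lower, against 7.88% of all genes; Stx1a, Syn2, Syn3, Syngr1 and Syt7 were added (edgeR adjusted p = 0.0270 to 0.0489) and Unc13c was lost. The WT count also depended on single libraries, with 6 genes lower without WT ipsilateral library 1, 5 without WT contralateral library 2 and 7 without WT contralateral library 3, against 2.68%, 2.61% and 2.45% of all genes. Scaling by total counts alone gave 8 and 14 genes lower in WT and Lama4-/-, against 2.9% and 5.31% of all genes. It moved the split of all called genes from 1521 higher and 840 lower to 2168 and 445 in WT, and from 1969 and 1611 to 2835 and 815 in Lama4-/-.

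**Figure D1:**
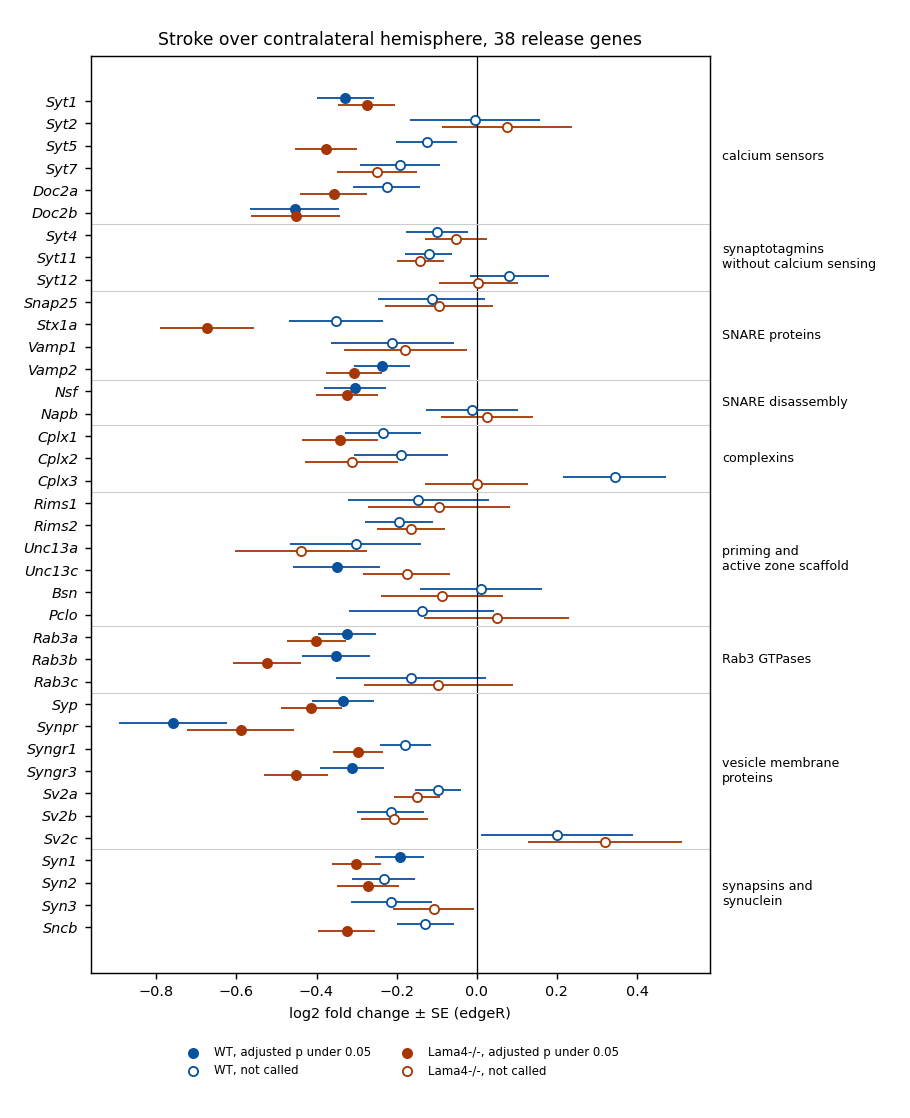
Fitted change of each of the 38 genes between the stroke and the contralateral hemisphere, as log2 fold change with its SE (horizontal axis), for WT (blue) and Lama4-/- (brown), grouped by role. Filled points passed the edgeR threshold; 11 WT and 17 Lama4-/- points are filled, all of them left of 0.

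Syt1, the calcium sensor of fast synchronous release in forebrain neurons, measured 1675, 1674 and 1694 CPM in the WT contralateral libraries and 1364, 1375 and 1483 CPM in the WT stroke libraries. The groups did not overlap. Syt1 fell by 20.3% in WT (log2 fold change -0.33 ± 0.07 SE, edgeR adjusted p = 0.00773). In Lama4-/- it stood at 1655, 1478 and 1676 CPM against 1356, 1351 and 1510 CPM, so that the highest stroke library exceeded the lowest control, and it fell by 17.4% (edgeR adjusted p = 0.0136). The Lama4-/- call was lost under total-count scaling, on the 6 Lama4-/- libraries alone, and without ipsilateral library 1 or 2 or contralateral library 3 (edgeR adjusted p = 0.0535 to 0.0632). Syt2, the fast sensor of brainstem, cerebellar and some inhibitory neurons, had means of 44.4 ± 6.24 and 46.4 ± 7.99 CPM (SD, n = 3) in the WT control and stroke groups and was not called. Its log2 change in WT had a 95% interval of -0.36 to 0.35.

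The slower and more sensitive sensors are the Doc2 proteins and Syt7, which serve spontaneous and asynchronous release. Doc2b measured 58.1, 53.7 and 60.9 CPM in WT contralateral libraries and 43.5, 44.2 and 44.6 CPM in WT stroke libraries, and 54.7, 50.7 and 61.7 against 35.2, 48.0 and 46.5 CPM in Lama4-/-. No stroke library reached a control of its genotype. The fall was 27.0% in WT and 26.9% in Lama4-/- (log2 fold change -0.45 ± 0.11 SE in each, edgeR adjusted p = 0.0137 and 0.00981), and without WT contralateral library 3 the WT call was lost (edgeR adjusted p = 0.0619). Doc2a, its close relative, fell in Lama4-/- from 47.8 ± 4.98 to 39.7 ± 1.70 CPM (SD, n = 3; edgeR adjusted p = 0.00785). The WT means of Doc2a were 43.7 and 39.3 CPM (edgeR adjusted p = 0.0879; DESeq2 adjusted p = 0.0470). Syt7 had log2 changes of -0.19 and -0.25 and was called in neither genotype, but it passed on the 6 WT libraries alone (edgeR adjusted p = 0.0489) and in Lama4-/- without ipsilateral library 3 (edgeR adjusted p = 0.0425). Syt5, a calcium-binding synaptotagmin, measured 156, 178 and 163 CPM in Lama4-/- contralateral libraries and 132, 135 and 139 CPM in the stroke libraries, a fall of 23.0% without overlap (edgeR adjusted p = 0.00344). In WT its groups overlapped, from 141 to 155 CPM and from 129.7 to 158 CPM, and the log2 change was -0.12 (edgeR adjusted p = 0.305).

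The 3 synaptotagmins that do not act as calcium sensors of release were called in neither genotype by edgeR. Syt11, which limits vesicle retrieval, was the most even of them, at 889.9 to 928 CPM in WT contralateral and 868 to 878 CPM in WT stroke libraries, with log2 changes of -0.12 and -0.14 (DESeq2 adjusted p = 0.0493 in Lama4-/-). Syt4, a regulator of dense-core vesicles, had log2 changes of -0.10 and -0.05, and Syt12, a regulator of spontaneous release, 0.08 and 0.00.

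The SNARE proteins did not move alike. Snap25, the plasma membrane SNARE with the highest CPM of the 38, measured 2259, 1703 and 1893 CPM in WT contralateral and 1828, 2020 and 1835 CPM in WT stroke libraries. In Lama4-/- it stood at 2185, 1565 and 1757 against 1557, 1899 and 2011 CPM. Its groups overlapped widely in both genotypes. Snap25 was not called (log2 fold change -0.11 ± 0.13 and -0.10 ± 0.13 SE), and its 95% interval in WT ran from -0.40 to 0.18, which includes changes as large as that of Syt1.

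Stx1a, the syntaxin that pairs with Snap25, measured 165.5, 209 and 187.5 CPM in Lama4-/- contralateral and 119.9, 113 and 140.5 CPM in Lama4-/- stroke libraries. It fell by 37.3%, the largest fall among the 38 in that genotype (log2 fold change -0.67 ± 0.12 SE, edgeR adjusted p = 0.00148). In WT its stroke libraries at 141, 116 and 154.5 CPM also lay below the controls at 156, 161 and 182 CPM, by a log2 change of -0.35 (edgeR adjusted p = 0.0618; 0.0268 with the pool as a block and 0.0434 without WT ipsilateral library 3). Vamp2, the vesicle SNARE of most forebrain synapses, fell from 1064 ± 20.9 to 949 ± 25.5 CPM in WT (15.1%, edgeR adjusted p = 0.0344) and from 1090 ± 20.1 to 935 ± 80.3 CPM in Lama4-/- (19.1%, edgeR adjusted p = 0.00639), where ± is the SD over 3 libraries. In neither genotype did the groups overlap, yet the WT call was lost on leaving out any 1 of the 6 WT libraries (edgeR adjusted p = 0.0720 to 0.113) and under total-count scaling (edgeR adjusted p = 0.0908). Vamp1, more common in brainstem and spinal cord, was called in neither; its libraries spread from 185 to 274 CPM in the WT stroke group alone.

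Of the disassembly genes, Nsf, the ATPase, measured 1178, 1261 and 1185 CPM in WT contralateral libraries and 998, 1087 and 997 CPM in WT stroke libraries, without overlap. It fell by 19.0% in WT and 20.1% in Lama4-/- (edgeR adjusted p = 0.0166 and 0.00825). The WT call was lost without WT ipsilateral library 1 or 3 or contralateral library 2 (edgeR adjusted p = 0.0636 to 0.0708). Napb, the neuronal beta-SNAP that recruits NSF, had fitted changes of -0.01 and 0.03 on the log2 scale, and its stroke libraries at 558 to 590.1 CPM in WT lay inside the control range of 498 to 632 CPM. Its 95% interval in WT was -0.26 to 0.24.

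**Figure D2:**
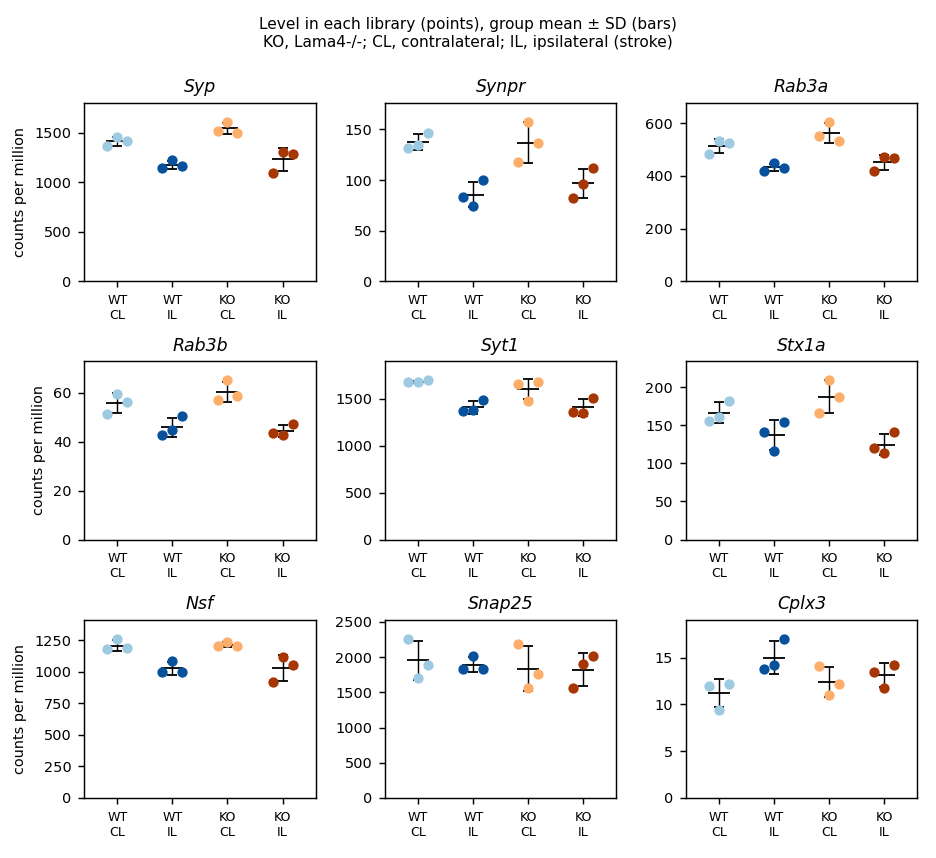
CPM (vertical axes, starting at 0) of 9 genes in the 3 libraries of each group, with the group mean and SD. Syp, Synpr, Rab3a, Rab3b, Stx1a and Nsf separate the stroke from the contralateral libraries in both genotypes, and Syt1 does so in WT alone. Snap25 overlaps in both, and Cplx3 lies higher in the WT stroke libraries.

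Complexins bind the assembled SNARE complex. Cplx1 measured 851, 1042 and 925 CPM in Lama4-/- contralateral and 720.1, 832 and 809 CPM in Lama4-/- stroke libraries. It fell by 21.1% there (edgeR adjusted p = 0.0189), a call that was lost without Lama4-/- ipsilateral library 1 (edgeR adjusted p = 0.0867), without Lama4-/- contralateral library 2 (edgeR adjusted p = 0.0823) or under total-count scaling (edgeR adjusted p = 0.0522). In WT the means were 824 ± 37.2 and 736 ± 73.7 CPM (SD, n = 3; edgeR adjusted p = 0.116, and 0.0225 with the pool as a block). Cplx2, the form of excitatory forebrain neurons, had log2 changes of -0.19 and -0.31 and was not called (edgeR adjusted p = 0.307 and 0.0696), although it passed in Lama4-/- in DESeq2 (adjusted p = 0.0491) and without contralateral library 2 or ipsilateral library 3 (edgeR adjusted p = 0.0225 and 0.0497).

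Cplx3, the form best known from retinal ribbon synapses, was the gene with the highest fold change of the 38 in WT. It measured 12.0, 9.44 and 12.2 CPM in WT contralateral libraries and 13.8, 14.3 and 17.0 CPM in WT stroke libraries. All WT stroke libraries lay above all controls, by 0.34 ± 0.13 (SE) on the log2 scale, short of the threshold (edgeR adjusted p = 0.0883). It passed with the pool as a block (edgeR adjusted p = 0.0270) and under total-count scaling (edgeR adjusted p = 0.0427). In Lama4-/- it stood at 14.1, 11.0 and 12.2 against 13.5, 11.8 and 14.3 CPM, with a log2 change of -0.00. The difference between the genotypes was -0.34 ± 0.18 (SE) and was not called.

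Of the 6 priming and active zone genes, edgeR called 1, in WT. Unc13a, the Munc13 protein of most glutamatergic synapses, measured 403, 332 and 363 CPM in WT contralateral and 350.4, 268 and 317 CPM in WT stroke libraries. In Lama4-/- it stood at 337, 276 and 417 against 231, 251 and 323 CPM. It was lower on the stroke side in all 6 pools, but the groups overlapped and it was not called (log2 fold change -0.30 ± 0.16 and -0.44 ± 0.16 SE, edgeR adjusted p = 0.247 and 0.0751). With the pool as a block it was called lower in both (edgeR adjusted p = 0.0130 and 0.00153), and in Lama4-/- also by DESeq2 (adjusted p = 0.0305) and without contralateral library 2 or ipsilateral library 3 (edgeR adjusted p = 0.0316 and 0.0184). Unc13c, a Munc13 of cerebellar granule cells that is sparse in the forebrain, measured 86.9, 81.5 and 83.0 CPM in WT contralateral and 68.6, 81.1 and 57.3 CPM in WT stroke libraries. It fell by 21.5% (edgeR adjusted p = 0.0429), with WT stroke library 2 within 1 CPM of the lowest control. That call was lost on the 6 WT libraries alone (edgeR adjusted p = 0.0680), under total-count scaling (edgeR adjusted p = 0.0871), and on leaving out any WT library other than ipsilateral 2 (edgeR adjusted p = 0.0845 to 0.147); without ipsilateral library 3 the log2 change was -0.23. In Lama4-/- its groups overlapped (edgeR adjusted p = 0.265).

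The scaffolds Bsn and Pclo, giant proteins that order the active zone, and Rims1 and Rims2, which tether Rab3 and calcium channels there, were called in neither genotype. Their log2 changes lay between -0.19 and 0.01 in WT and between -0.16 and 0.05 in Lama4-/-. Rims1 and Pclo had SEs of 0.18, so that the WT intervals of -0.53 to 0.24 and -0.53 to 0.26 span both a rise and a fall. Rims2 passed in Lama4-/- without contralateral library 2 (edgeR adjusted p = 0.0488).

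Rab3a, the GTPase of synaptic vesicles that binds RIM, measured 485, 533 and 526 CPM in WT contralateral and 419, 447 and 429 CPM in WT stroke libraries. It stood at 551, 604 and 531 against 419.7, 471 and 466 CPM in Lama4-/-, again without overlap. The fall was 20.1% in WT and 24.2% in Lama4-/- (edgeR adjusted p = 0.00894 and 0.00171). Rab3b, a form found in fewer neurons and in secretory cells, measured 51.4, 59.5 and 56.2 against 42.7, 44.6 and 50.3 CPM in WT, and 57.2, 65.0 and 58.5 against 43.6, 42.7 and 47.3 CPM in Lama4-/-. It fell by 21.6% and 30.4% (edgeR adjusted p = 0.0133 and 0.000757), the second of which had the smallest adjusted p of the 38 in the 5 comparisons. The WT call of Rab3b was lost without WT ipsilateral library 1 or contralateral library 2 (edgeR adjusted p = 0.0618 and 0.0609). Rab3c, at 310.4 to 566 CPM across the 12 libraries, was called in neither, with log2 changes of -0.16 and -0.10 and SEs of 0.19.

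Among the vesicle membrane proteins, Syp (synaptophysin, a major vesicle protein and partner of Vamp2) measured 1361, 1458 and 1416 CPM in WT contralateral and 1143, 1222 and 1166 CPM in WT stroke libraries. In Lama4-/- the values were 1521, 1608 and 1502 against 1092, 1309 and 1290.0 CPM. Every stroke library lay below every control of its genotype. Syp fell by 20.6% and 24.9% (log2 fold change -0.33 ± 0.08 and -0.41 ± 0.08 SE, edgeR adjusted p = 0.0101 and 0.00193).

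Synpr (synaptoporin), a relative of Syp, changed most in WT. It measured 131, 135 and 147 CPM in WT contralateral and 82.8, 74.6 and 99.6 CPM in WT stroke libraries, and 118, 157 and 136 against 82.3, 95.7 and 112 CPM in Lama4-/-. The groups did not overlap in either genotype. The fall was 40.9% in WT (log2 fold change -0.76 ± 0.14 SE, edgeR adjusted p = 0.00259) and 33.5% in Lama4-/- (edgeR adjusted p = 0.00755). The ratio of Synpr to Syp in CPM was 0.0927 to 0.104 in WT contralateral and 0.0610 to 0.0854 in WT stroke libraries, which did not overlap. In Lama4-/- the ratio overlapped, at 0.0773 to 0.0979 against 0.0731 to 0.0867.

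The synaptogyrins are 4-pass vesicle proteins related to Syp. Syngr3 fell from 178.5 ± 6.92 to 151 ± 6.22 CPM in WT and from 186.5 ± 11.8 to 145 ± 13.4 CPM in Lama4-/- (SD, n = 3; edgeR adjusted p = 0.0178 and 0.00143), with no overlap. Its WT call was lost without WT contralateral library 2 or ipsilateral library 2 (edgeR adjusted p = 0.0717 and 0.0683). Syngr1 measured 635, 636 and 610.1 CPM in Lama4-/- contralateral and 503, 548 and 573 CPM in Lama4-/- stroke libraries, a fall of 18.6% (edgeR adjusted p = 0.00431). In WT its stroke libraries at 534 to 538 CPM lay below the controls at 568 to 585 CPM (edgeR adjusted p = 0.0720, and 0.0495 with the pool as a block). The SV2 proteins, glycoproteins that set vesicle competence, did not pass in edgeR. Sv2a, the most even of the 38 within groups, had log2 changes of -0.10 and -0.15 (DESeq2 adjusted p = 0.0275 in Lama4-/-), and Sv2b -0.22 and -0.21, the latter called lower with the pool as a block in WT and Lama4-/- (edgeR adjusted p = 0.0411 and 0.0345) and in Lama4-/- without ipsilateral library 3 (edgeR adjusted p = 0.0444). Sv2c, typical of basal ganglia, had values above 0 (0.20 and 0.32) with SEs of 0.19 at 11.6 to 27.9 CPM.

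Synapsins tether vesicles in the reserve pool. Syn1 measured 656, 679.9 and 654 against 625, 605 and 598 CPM in WT, and 633, 665 and 679 against 540.2, 577 and 586 CPM in Lama4-/-, without overlap in either. The fall of 12.5% in WT passed narrowly (edgeR adjusted p = 0.0487) and was lost on leaving out any 1 WT library, without a filter on low counts or under total-count scaling (edgeR adjusted p = 0.0595 to 0.155). That of 18.8% in Lama4-/- had an edgeR adjusted p of 0.00346. Syn2 fell by 17.2% in Lama4-/- (edgeR adjusted p = 0.0223); its WT value of -0.23 on the log2 scale was not called (edgeR adjusted p = 0.0605, and 0.0179 with the pool as a block). The Lama4-/- call of Syn2 was lost without Lama4-/- ipsilateral library 1 or 2 or contralateral library 2 or 3, on the 6 Lama4-/- libraries alone and under total-count scaling (edgeR adjusted p = 0.0527 to 0.0944). Syn3, the synapsin of developing and immature neurons, was called in neither, but passed on the 6 WT libraries alone (edgeR adjusted p = 0.0409). Sncb (beta-synuclein, a presynaptic relative of alpha-synuclein) measured 376, 403 and 336 against 306, 334 and 306 CPM in Lama4-/-, a fall of 20.1% without overlap (edgeR adjusted p = 0.00546). In WT it stood at 314 ± 15.7 and 302 ± 9.15 CPM (SD, n = 3; edgeR adjusted p = 0.252).

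The next question was whether the loss of Lama4 changed the response of these genes to stroke. Although more of them passed in Lama4-/- than in WT, the difference between the genotypes' stroke changes was called for 0 of the 38 and for 0 of all genes (0%; edgeR, smallest adjusted p among the 38 of 1.00). At an unadjusted p under 0.05 it held 1 of the 38, Syt5, and 244 of all genes (1.59%), and DESeq2 and voom also called 0. With the pool as a block, the unadjusted p was under 0.05 for 4 of the 38 and for 665 of all 15351 genes (edgeR). The 4 were Sncb, Cplx3, Syt5 and Stx1a, and none was called after adjustment. The median difference over the 38 was -0.05, beside -0.01 for all genes. Of the 38, 22 had the lower log2 fold change in Lama4-/- (57.9%), beside 53.3% of all genes. The 7 genes called in Lama4-/- alone are therefore not shown to respond differently. For Syt5 the difference was -0.25 ± 0.11 (SE), with a 95% interval of -0.48 to -0.02 before adjustment, and for Stx1a -0.32 ± 0.17, with -0.68 to 0.04. For Syp the difference was -0.08 ± 0.11 and for Syt1 0.05 ± 0.10. Across the 38 the intervals reached as low as -0.74 (Cplx3) and as high as 0.75 (Pclo), and for most genes they were narrower.

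Lama4-/- and WT were then compared within a hemisphere. In the contralateral hemisphere 0 of the 38 were called, against 0.0134% of all genes (2 of 14958, edgeR). In the stroke hemisphere 0 of the 38 were called, against 0.00658% (1 of 15208). The unadjusted p was under 0.05 for 2 of the 38 in each, Syt4 and Sncb contralaterally and Sv2c and Bsn in the stroke hemisphere, against 9.51% and 3.49% of all genes. Contralaterally this number became 15 with the replicate block, against 20.9%, and 8 without Lama4-/- contralateral library 1, against 14.7%. In the stroke hemisphere it became 4 with the replicate block, against 872 of 15208 genes. It was 6 without Lama4-/- ipsilateral library 3, against 1070 of 15360 genes. Without Lama4-/- ipsilateral library 2 or WT ipsilateral library 3 it was 0, against 361 of 15332 and 373 of 15317 genes. DESeq2 and voom called 0 of the 38 in both. Syt4 measured 272, 248 and 253 CPM in WT and 223, 214 and 223 CPM in Lama4-/- contralateral libraries, which did not overlap (log2 fold change -0.25 ± 0.06 SE, edgeR adjusted p = 0.510). Sncb measured 296, 321 and 325 against 376, 403 and 336 CPM, also without overlap (0.22 ± 0.08 SE, edgeR adjusted p = 0.510). The medians over the 38 were -0.03 and -0.06, beside 0.01 and 0.00 for all genes. For Syp the 95% interval of the genotype difference was -0.02 to 0.25 contralaterally and -0.16 to 0.24 in the stroke hemisphere. The authors' deposited table likewise lists none of the 38 with an adjusted p under 0.05 in either hemisphere, with Syt4 and Sncb under an unadjusted 0.05 contralaterally, and Syt4 and Syn1 in the stroke hemisphere. These comparisons share their libraries with the stroke comparisons.

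**Figure D3:**
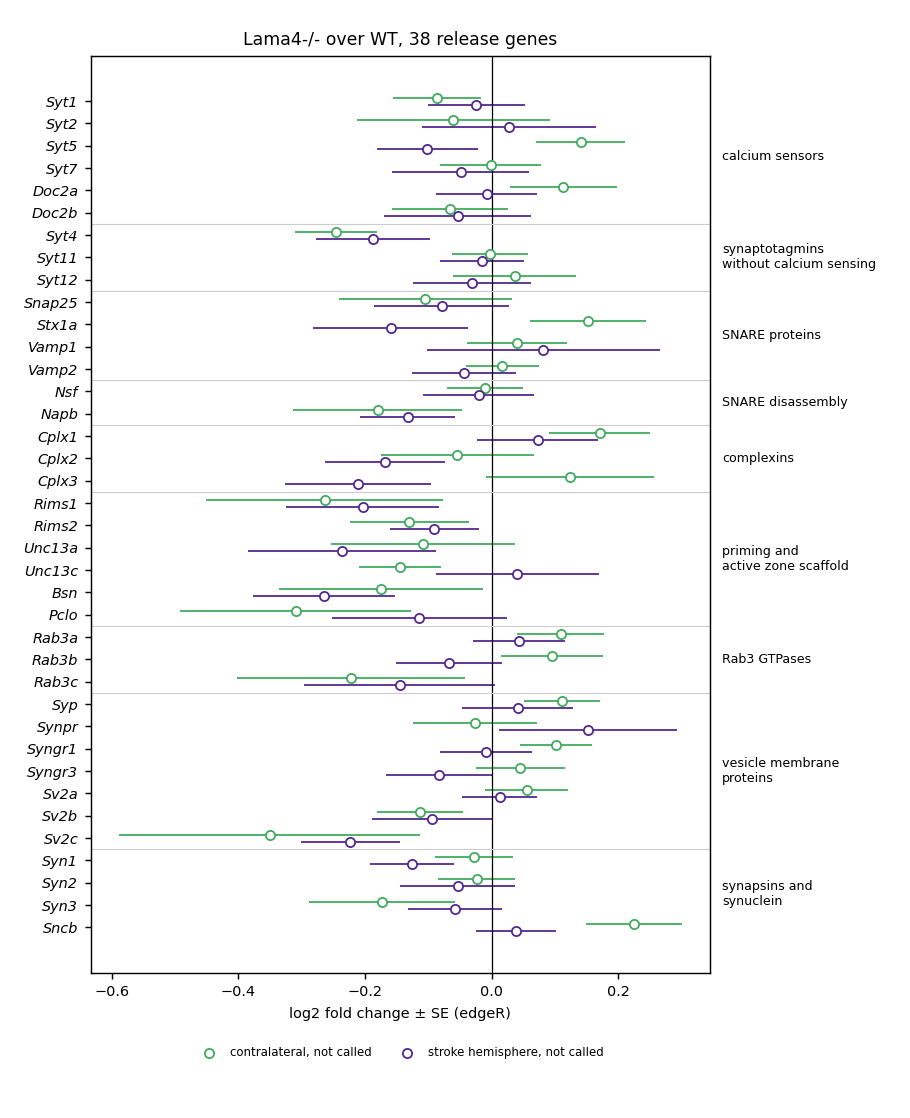
Log2 fold change with SE of Lama4-/- over WT for the 38 genes (horizontal axis), in the contralateral (green) and stroke (purple) hemisphere. All points are open, since none passed the edgeR threshold; they lie between -0.35 and 0.22.

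The other genes of the pathway and of neurons were read beside these results. Of all genes, 5.47% fell and 9.91% rose in WT, and 10.5% fell and 12.8% rose in Lama4-/- (edgeR, adjusted p under 0.05). Of 50 further release and transmitter genes (49 tested), 16 fell and 1 rose in WT and 17 fell and 1 rose in Lama4-/-, with medians of -0.19 and -0.19. The 1 that rose in both was Syngr2, a synaptogyrin expressed mostly outside neurons (log2 fold change 0.74 and 0.51, edgeR adjusted p = 0.00184 and 0.0108). Those that fell furthest were Slc18a2, the vesicular monoamine transporter (-0.60), Cadps2, a priming factor of dense-core vesicles (-0.44), and Slc17a6, a vesicular glutamate transporter (-0.38), in WT, and Cadps2 (-0.46), Dnm1, the dynamin of vesicle recycling (-0.44), and Syt3 (-0.40) in Lama4-/-. Of 14 neuronal cytoskeleton and surface genes, 6 fell in WT and 8 in Lama4-/-, with medians of -0.20 and -0.27, among them Tubb3 (-0.34 and -0.44) and Rtn1 (-0.35 and -0.43). Of 18 postsynaptic scaffold genes, 4 and 8 fell, with medians of -0.23 and -0.28, among them Dlg3 (-0.34 and -0.37). These medians lie close to those of the 38 release genes.

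Summed over the 38 genes, the level was 18729, 17581 and 17922 CPM in WT contralateral and 16422, 16473 and 16401 CPM in WT stroke libraries, and the stroke mean was 90.9% of the control mean. In Lama4-/- it was 18740, 17299 and 18057 against 14720, 16482 and 17050 CPM, or 89.2%. The neuronal cytoskeleton and surface genes stood at 90.4% and 87.0% of their controls, the postsynaptic genes at 90.8% and 86.4%, and the further release genes at 90.7% and 89.2%. Divided by the sum of the neuronal cytoskeleton and surface genes in the same library, the 38 came to 2.51 to 2.70 in WT contralateral and 2.59 to 2.65 in WT stroke libraries, and to 2.38 to 2.66 and 2.47 to 2.64 in Lama4-/-, so that the groups overlapped in both genotypes.

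**Figure D4:**
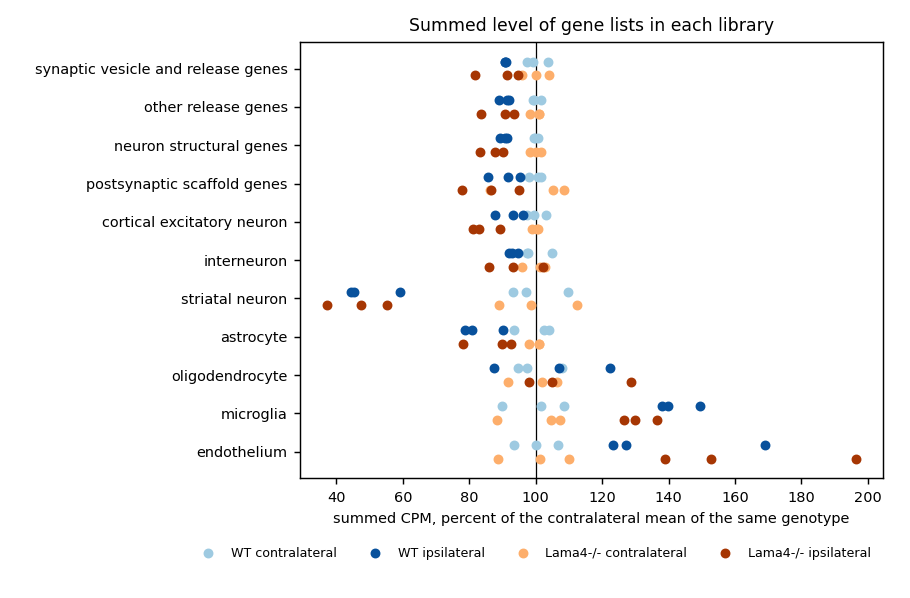
Summed CPM of gene lists in each library, as percent of the contralateral mean of the same genotype (horizontal axis), for the 38 release genes and 10 other lists. The stroke means of the release genes are 90.9% in WT and 89.2% in Lama4-/-, those of the striatal neuron markers 49.6% and 46.5%, and those of the endothelial markers 140% and 163%.

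Markers of other cells moved in the same comparisons. Beside them, 5.47% of all genes fell and 9.91% rose in WT, and 10.5% fell and 12.8% rose in Lama4-/-. All 10 striatal neuron markers fell in both genotypes, to 49.6% and 46.5% of the control sum (513 to 684 CPM against 1080 to 1269 CPM in WT, and 462 to 687 against 1111 to 1401 CPM in Lama4-/-), led by the adenosine receptor Adora2a with log2 changes of -1.68 and -1.76. Of 10 cortical excitatory markers 2 and 3 fell (sums at 92.3% and 84.4%), and of 9 interneuron markers 2 and 2 (93.2% and 93.8%). Of 8 astrocyte markers 4 and 3 fell and 1 rose (83.2% and 86.8%). Of 8 oligodendrocyte markers 2 rose in each (106% and 111%), of 8 microglial markers 3 in each, with 1 lower in Lama4-/- (142% and 131%), and of 8 endothelial markers 4 and 5 (140% and 163%). Neutrophil and monocyte markers summed to 2.25 to 3.49 CPM in the contralateral and 21.3 to 39.8 CPM in the stroke libraries of WT. In Lama4-/- the sums were 1.90 to 3.89 and 24.6 to 56.4 CPM. Of the 9 listed, 5 were tested, of which 1 rose in WT and 5 in Lama4-/-. The difference of the stroke changes was called for 0 of the 5. Of the remaining region lists, thalamic markers fell in 2 and 1 of 8, the 1 in Lama4-/- being near the share of all genes. Hypothalamic markers fell in 4 and 3 of 10, choroid plexus in 1 and 0 of 8, and midbrain and hindbrain markers in 0 of 8. No list gene was at 0 in all libraries of a stroke group. The part of these shifts in the lower release genes was not tested.

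Within groups the 38 genes did not vary together as 1 block. The SD within groups of log2 levels, here CPM with TMM scaling, ran from 0.0471 (Sv2a) to 0.282 (Sv2c), with a median of 0.129. Deviations from the group mean correlated with those of Snap25 at r = 0.946 for Cplx2, 0.926 for Rab3c, 0.923 for Napb, 0.884 for Rims2, 0.884 for Syn3 and 0.870 for Syt7 over the 12 libraries, which share depth and preparation between genes. In all, 13 genes had r above 0.6 and 11 had r below 0, the lowest being Syt5 at -0.464. Snap25 and its companions were low in contralateral library 2 of both genotypes, and these were the contralateral libraries with the highest mitochondrial share of counts in their genotype (3.65% in WT and 3.34% in Lama4-/-, beside 2.71% to 3.25% in the other 10). They were also low in Lama4-/- ipsilateral library 1, whose mitochondrial share was 2.84%. Of the 11 genes with r below 0, 8 lay above the group mean in each of these contralateral libraries, and 8 lay below it in Lama4-/- ipsilateral library 1. The companions and the 11 were picked by their correlation with Snap25 over these same libraries, so their positions are partly fixed by that choice. The part of library quality in this spread was not tested. None of the 7 genes (Snap25 and the 6 named above) was called between hemispheres in either genotype by edgeR on all libraries. Vamp2, also among the 13 (r = 0.687), was called lower in both (edgeR adjusted p = 0.0344 in WT and 0.00639 in Lama4-/-). Spread within groups also enters the SE of these tests, which was 0.187 for Rab3c in each genotype.

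**Figure D5:**
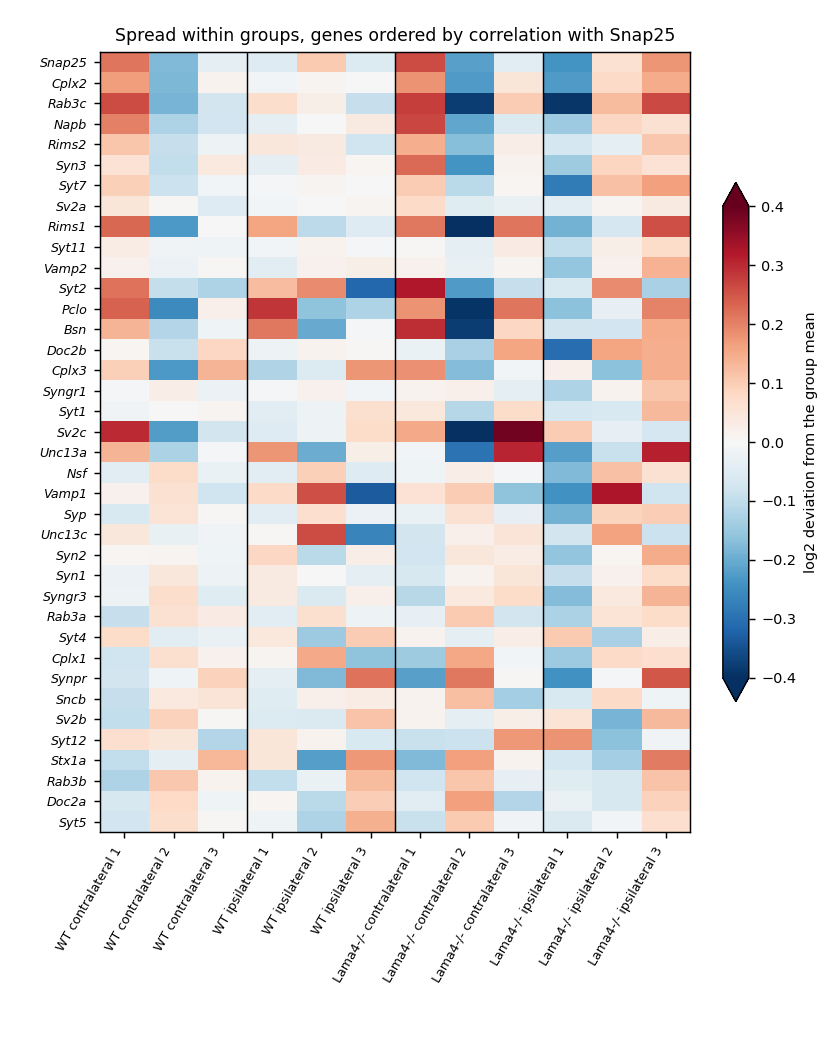
Log2 deviation of each library (columns) from its group mean for the 38 genes (rows, ordered by correlation with Snap25); red is above and blue below the mean. The upper rows share blue in contralateral library 2 of both genotypes and in Lama4-/- ipsilateral library 1.

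Per exon length (RPKM, CPM divided by kilobases of exon), the 38 genes spanned a wide range. Over the exon bases of GENCODE M21 on mm10, the WT contralateral level was 376 ± 17.0 RPKM (SD, n = 3) for Cplx1, 287 ± 41.6 for Snap25, 279 ± 5.49 for Vamp2, 271 ± 9.28 for Syp and 231 ± 11.8 for Rab3a. At the low end were Syn3 at 5.01 ± 0.319, Cplx3 at 3.80 ± 0.523 and Sv2c at 2.25 ± 0.446. Snap25 and Vamp2 did not differ beyond the SD of Snap25. The protocol names a 3′ library kit, and if reads came from 3′ ends only, dividing by exon length would misstate these levels; which holds was not tested. The exons of 15 of the 38 genes overlap those of another gene, most on the opposite strand, and the strand setting of the counting is not given. The largest overlaps were 1733 of 12282 exon bases of Syn3 with Timp3, 1103 of 2803 bases of Doc2a with Ino80e, and 950 of 5539 bases of Syt12 with A930001C03Rik, so counts of these 3 are less certain. Syp shares 875 of its 5211 exon bases with Gm14703 on the opposite strand (chrX:7638471-7653256 for Syp), so its counts are less certain too. Synpr (chr14:13284780-13616340), Stx1a (chr5:135023482-135051100) and Syt1 (chr10:108497650-109010982) share none.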

How the data were processed

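The authors deposited raw read counts per gene for 12 libraries. Reads were aligned to mm10, with STAR 2.6.0 and featureCounts 1.6.4 among the tools, per the submitters' processing notes, which also name bcl2fastq, FastQC 0.72 and DESeq2; strand setting and annotation: not given in the sources used here. The authors' deposited genotype tables give log2 fold changes and p-values (a Wald p and its adjusted form); 48 further per-library columns were not used. Of 20347 gene rows, 2207 were at 0 throughout.

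Counts were tested with edgeR 4.0.16 in R 4.3.3 (TMM, filterByExpr, robust quasi-likelihood F test). Benjamini-Hochberg adjustment ran over all genes tested, with calls made at an adjusted p under 0.05. Stroke changes and their difference were fitted on all 12 libraries, genotype differences on the 6 of a hemisphere. SE is the log2 fold change over the square root of F. Intervals of 95% use the fit's degrees of freedom and are not adjusted. Alternatives were RLE scaling, other filters, DESeq2 1.42.0, limma 3.58.1 (voom), the replicate block, other sample sets and leaving out each library; total-count scaling was added after seeing the data. Hemispheres with the same number deviated together (r = 0.109 to 0.337 for all 6 pairs, -0.25 to 0.03 for other numbers) and were taken as paired by pool; the labels do not state this. The genes and lists were chosen with earlier results of these data known. All 38 genes are named; of other lists, those called with the largest changes. The edgeR fit was tested on simulated counts.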

Additional observations from a re-analysis of the deposited data

How the results depend on the processing

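No called change of any of the 38 genes reversed under any alternative. Of the 17 genes called lower in Lama4-/-, 14 were called under every alternative run, and 4 of the 11 in WT (Rab3a, Syp, Synpr and Syt1). In WT the count of all genes called, 2361, became 3608 with the replicate block (the pool) and 1347 to 1740 when 1 library was left out; the count of release genes lower, 11, became 17 with the block and 5 to 8, and that of genes higher, 0, became 1 with the block and 1 under total-count scaling. Total-count scaling moved the median of the 38 to -0.12 in WT and -0.18 in Lama4-/-. In Lama4-/- the 3580 genes called became 2286 to 3618 with 1 library left out; with the block they became 4906, and among the 38 it added the calls of Sv2b and Unc13a alone. DESeq2 called 15 of the 38 lower in WT and 21 in Lama4-/-, where leaving out 1 library gave 14 to 21. Between genotypes, the 2 contralateral calls became 17 by DESeq2, 1 by voom, 121 with the block on replicate number and 1 to 9 with 1 library left out. The 1 call in the stroke hemisphere became 22 by DESeq2, 4 with the block, 3 on all 12 libraries and 1 to 5 with 1 library left out; the median of the 38 there ranged from -0.13 to 0.012. None of these genotype calls was a release gene. Same-numbered libraries of the genotypes correlated at r = -0.097 to 0.349, other numbers at -0.409 to 0.343, and were not taken as paired. The difference of the stroke changes gave 0 to 1 calls with 1 library left out, the 1 without WT contralateral library 2. The causes were not tested. With 3 pools a group, a gene that was not called may still have changed by an amount within its interval.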
